A study of Mus musculus with 11 samples.

Results

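Collagen leaves the cell as a hydroxylated, chaperoned triple helix and gains its strength only once its chains are covalently crosslinked. The enzymes and the chaperone that carry out these steps were examined in RNA of the mouse left ventricle. They were 10 genes chosen by name from 25006 counted genes: the 5 lysyl oxidases Lox, Loxl1, Loxl2, Loxl3 and Loxl4, the 3 lysyl hydroxylases Plod1, Plod2 and Plod3, the prolyl hydroxylase subunit P4ha1, and Serpinh1, which encodes the collagen chaperone HSP47. The rule was their names and used no measured value, although it was written with earlier results of these data known, and all 10 passed the filter on low counts. Each of the 11 libraries came from the left ventricle of 1 mouse. MI mice had permanent ligation of the left anterior descending coronary artery and gave infarcted ventricle 9 days later, and naive mice gave ventricle of the same anatomical area. Both states were sampled in Vegfc fl/fl ; LysMCre mice (here Vegfc-deficient; 3 naive, 3 MI) and in control mice (2 naive, 3 MI). LysMCre drives recombination in myeloid cells, macrophages and neutrophils among them, and not in fibroblasts. The genotype field of the labels gives the control mice as Vegfc fl/fl, so that all groups would share the floxed alleles, while the protocol names LysMCre mice. Ages were not given in the sources used here.

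Lysyl hydroxylases and prolyl 4-hydroxylases act on new procollagen chains in the endoplasmic reticulum and need iron, oxygen and ascorbate. Prolyl hydroxylation makes the helix stable at body temperature, and lysyl hydroxylation fixes which crosslinks can form later. HSP47 binds the folded helix until it is exported. Outside the cell the copper-dependent lysyl oxidases oxidise lysines and hydroxylysines of collagen, and lysines of elastin, into aldehydes that condense into crosslinks. In the infarcted ventricle this machinery is known for turning a soft, cellular granulation tissue into a stiff scar that resists rupture and dilatation.

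The libraries held between 10824989 and 26782728 counts. The floor of detection, set at 3 counts, was worth 0.101 to 0.363 CPM (counts scaled to library size), depending on the library, which covers counting error only. Whole-tissue Vegfc did not separate the genotypes (21.9 to 45.5 CPM in control and 22.4 to 34.5 CPM in Vegfc-deficient libraries). Lyz2, into which LysMCre is inserted, was at 2120 to 5378 CPM in control libraries and at 12.4 to 1391 CPM in 5 of the 6 Vegfc-deficient libraries. M149, which the labels give as naive Vegfc-deficient, went against its label with 4563 CPM. Values without it are given, in part as ranges, for the changes with MI, the family shares and the ratios to collagen. Between genotypes they are given only for Lox and Loxl4 in naive hearts and for the difference of MI responses of Lox. Xist ranged from 188 to 403 CPM with MI and from 0.624 to 11.8 CPM without, while 4 summed Y-linked genes were at 0 to 1.84 CPM and 152 to 195 CPM, so the effects of MI and of this difference cannot be told apart in any comparison of MI with naive hearts. Cardiomyocyte markers (10 genes) summed to 75097 to 107074 CPM in naive and 4015 to 31752 CPM in MI libraries, and all 10 were detected in every group. Markers of fibroblasts (11 genes), the source of most scar collagen, summed to 4159 to 5184 CPM in naive and 4088 to 5650 CPM in MI libraries, ranges that overlap. The sum does not stand for each marker. With MI, 5 were called higher and 1 lower in control hearts, and 9 higher and 1 lower in Vegfc-deficient hearts. Gsn, the most abundant of them, was the 1 that fell (log2 fold changes -1.67 and -1.25). In bulk tissue, more cells of a type and more RNA per cell cannot be told apart.

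After MI, 8 of the 10 genes rose in control hearts and all 10 rose in Vegfc-deficient hearts, and none fell. The background was broad: of the 14779 genes tested, 26.3% rose and 24.1% fell in control hearts, and 30.0% rose and 27.7% fell in Vegfc-deficient hearts, at an edgeR adjusted p (quasi-likelihood test, Benjamini-Hochberg adjustment over all genes) under 0.05. The median log2 fold change of the 10 genes was 2.30 in control and 2.48 in Vegfc-deficient hearts, beside 0.13 and 0.097 over all genes tested. For 9 of the 10 genes, all but Plod1, the CPM of all 6 MI libraries lay above those of all 5 naive libraries, an order found in 24.5% of genes tested. Leaving out M149 left the counts at 8 and 10. The fold changes in Vegfc-deficient hearts of the 9 genes other than Lox were then between 0.65 for Plod1 and 3.41 for Loxl3, with edgeR adjusted p from 0.00013 for Loxl1 to 0.0129 for Plod1.

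**Figure D1:**
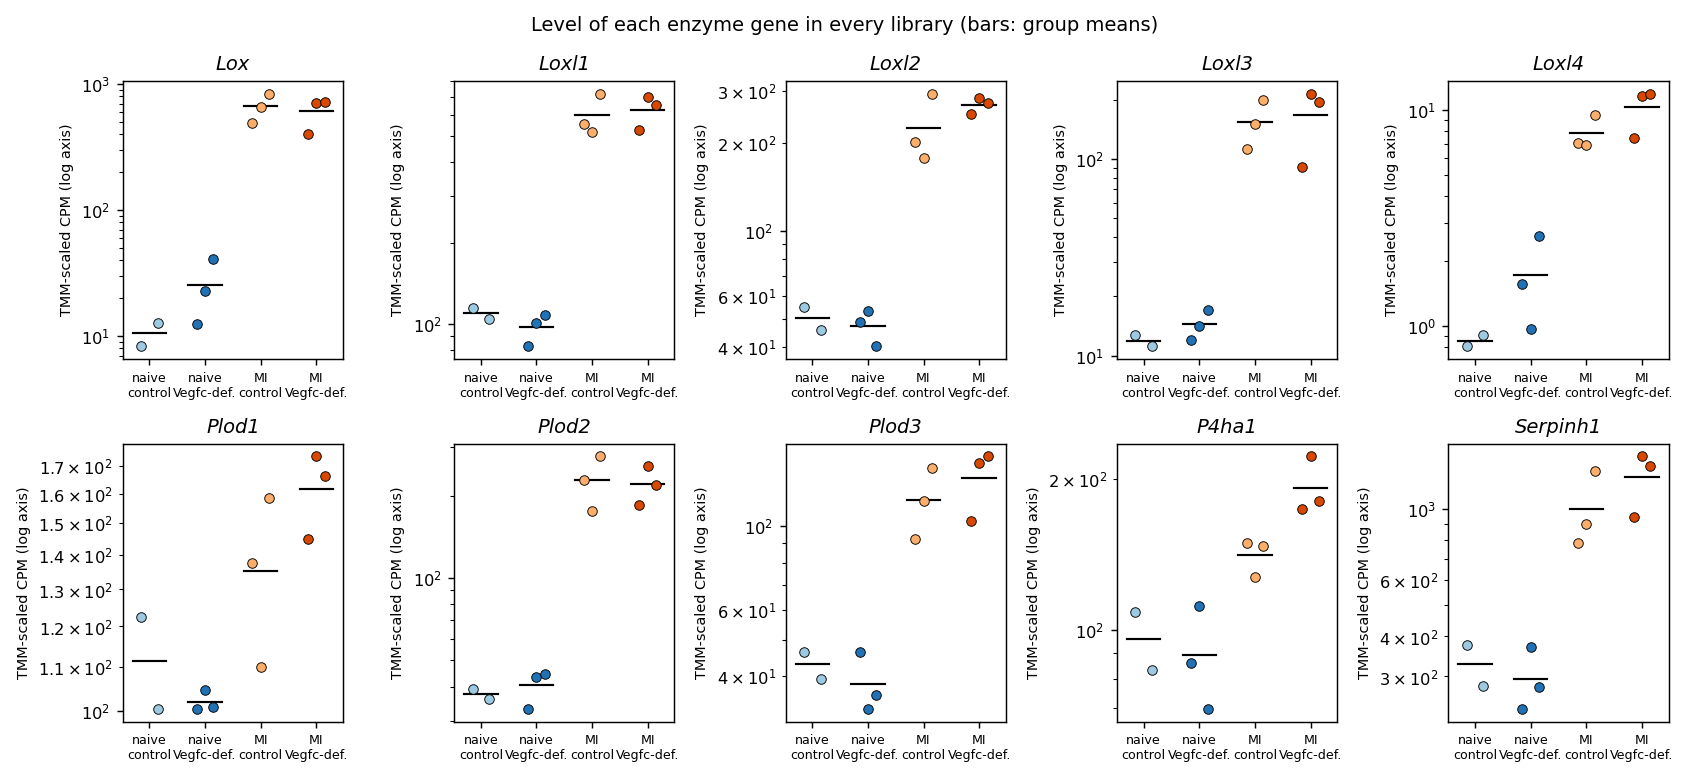
TMM-scaled CPM (vertical log axes, each with its own range) of the 10 genes in the 11 libraries, 1 point per library, with bars at the group means of 2, 3, 3 and 3 libraries. MI points lie above naive points in 9 panels, with the widest gap for Lox, and overlap for Plod1.

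Lox, the founding lysyl oxidase and the main crosslinker of both collagen and elastin (ENSMUSG00000024529, GRCm38 chromosome 18, 52516067 to 52529867), showed the steepest rise. Naive controls M44 and M45 had 8.29 and 12.8 CPM, and naive Vegfc-deficient hearts M149, M150 and M34 had 12.4, 23.0 and 40.9 CPM. After MI the level was 495, 665 and 841 CPM in controls M006, M38 and M40, while Vegfc-deficient hearts M35, M900 and M913 had 401, 715 and 718 CPM. Every MI library was thus well above every naive one, and the naive Vegfc-deficient libraries had the widest relative spread (coefficient of variation 56.6%) of the 4 groups. Lox rose by a log2 fold change of 5.98 in control hearts (standard error 0.60, edgeR adjusted p = 0.000159) and of 4.58 in Vegfc-deficient hearts (standard error 0.47, edgeR adjusted p = 5.84e-05). Without M149 the second value was 4.25.

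Loxl1, the oxidase best known for elastic fibre renewal (ENSMUSG00000032334, chromosome 9, 58287738 to 58313186), was already abundant in naive hearts. It was at 115 and 105 CPM in naive control M44 and M45 and at 82.5, 101 and 108 CPM in naive Vegfc-deficient M149, M150 and M34. In MI control M006, M38 and M40 it was at 556, 519 and 719 CPM, and in MI Vegfc-deficient M35, M900 and M913 at 526, 701 and 654 CPM. The groups of each state were tight and far apart. Its log2 fold changes were 2.44 in control hearts (standard error 0.23, edgeR adjusted p = 0.000138) and 2.69 in Vegfc-deficient hearts (standard error 0.20, edgeR adjusted p = 2.64e-05).

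Loxl2, Loxl3 and Loxl4 carry scavenger receptor cysteine-rich domains ahead of the catalytic domain. Loxl2 crosslinks basement membrane and fibrillar collagen (ENSMUSG00000034205, chromosome 14, 69609068 to 69695834) and was at 40.2 to 54.8 CPM in naive libraries. It was at 201, 178 and 295 CPM in MI control M006, M38 and M40 and at 252, 284 and 274 CPM in MI Vegfc-deficient M35, M900 and M913, with log2 fold changes of 2.16 (standard error 0.24) and 2.51 (standard error 0.21). The MI Vegfc-deficient libraries were close together and inside the upper part of the control range. Loxl3 (ENSMUSG00000000693, chromosome 6, 83034173 to 83052562) was at 11.1 to 17.0 CPM in naive libraries, at 112, 150.2 and 198 CPM in MI control M006, M38 and M40 and at 90.6, 214 and 195 CPM in MI Vegfc-deficient M35, M900 and M913. Its log2 fold changes of 3.69 (standard error 0.41) and 3.53 (standard error 0.34) came next to those of Lox. Library M35 stood below the other 5 MI libraries for Loxl3 as it did for Lox. Loxl3 shares 535 exon bases with Htra2 on the opposite strand. Whether the counting used strand is not given in the sources used here. How reads in the shared bases were assigned or left out is thus not known. Loxl4 (ENSMUSG00000025185, chromosome 19, 42593982 to 42612813) was the rarest oxidase, with 8 to 32 counts in each naive library. It was at 0.802 to 2.60 CPM in naive libraries, 6.86 to 9.50 CPM in MI control and 7.40 to 11.9 CPM in MI Vegfc-deficient libraries, with log2 fold changes of 3.18 (standard error 0.44) and 2.55 (standard error 0.35). All 3 genes rose in both genotypes, with edgeR adjusted p from 3.34e-05, for Loxl2 in Vegfc-deficient hearts, to 0.00045, for Loxl4 in control hearts.

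The 3 lysyl hydroxylases answered MI unequally. Plod2, the only one of them that hydroxylates the collagen telopeptides, where pyridinoline crosslinks of scar tissue start (ENSMUSG00000032374, chromosome 9, 92542223 to 92608428), was at 39.1 and 36.0 CPM in naive control M44 and M45 and at 33.1, 43.6 and 44.6 CPM in naive Vegfc-deficient M149, M150 and M34. In infarcted hearts it was at 227, 176 and 278 CPM in control M006, M38 and M40 and at 184, 257 and 219 CPM in Vegfc-deficient M35, M900 and M913. States did not overlap and genotypes did. The log2 fold changes were 2.59 (standard error 0.25, edgeR adjusted p = 0.000138) and 2.44 (standard error 0.21, edgeR adjusted p = 3.59e-05). Plod1, which hydroxylates lysines within the helix (ENSMUSG00000019055, chromosome 4, 147909753 to 147936767), was at 122 and 100.4 CPM in naive control M44 and M45, at 100.4, 105 and 101 CPM in naive Vegfc-deficient M149, M150 and M34, at 138, 110 and 158 CPM in MI control M006, M38 and M40 and at 145, 173 and 166 CPM in MI Vegfc-deficient M35, M900 and M913. In control hearts the states overlapped, and its log2 fold change of 0.28 did not pass the test (standard error 0.17, edgeR adjusted p = 0.196), nor did its values of 0.15 without M45 or without M40 and of 0.43 without M44. In Vegfc-deficient hearts it rose by 0.66 (standard error 0.15, edgeR adjusted p = 0.00422). The difference between these responses was 0.38 (standard error 0.23, edgeR adjusted p = 0.655 for the interaction; 0.24 without M44), so a genotype effect on the response was not shown. Plod3, which also transfers glucose and galactose onto hydroxylysine (ENSMUSG00000004846, chromosome 5, 136987019 to 136996648), was at 32.8 to 46.5 CPM in naive, 92.6 to 142 CPM in MI control and 103 to 153 CPM in MI Vegfc-deficient libraries. It rose by 1.44 (standard error 0.24) and 1.81 (standard error 0.22), with edgeR adjusted p of 0.00117 and 0.000111. Plod3 shares 529 exon bases with Znhit1 on the opposite strand. Plod2 shares 346 with Gm38391, a transcript with 352 counts over all libraries. The limit given for Loxl3 holds for both. Loxl2 shares 301 exon bases with Gm27177 and Lox shares 30 with AC161119.1, antisense genes that are not among the counted genes. Whether antisense reads there were counted to Loxl2 or Lox is not known either.

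P4ha1, the main catalytic subunit of collagen prolyl 4-hydroxylase (ENSMUSG00000019916, chromosome 10, 59323296 to 59373304), moved least besides Plod1. It was at 109 and 83.2 CPM in naive control M44 and M45 and at 86.2, 112 and 69.6 CPM in naive Vegfc-deficient M149, M150 and M34. In MI control M006, M38 and M40 it was at 149.5, 128 and 147 CPM, and in MI Vegfc-deficient M35, M900 and M913 at 174, 222 and 181 CPM. Each MI library was above each naive one. Each MI Vegfc-deficient library was above each MI control library, where 12.1% of genes tested had no overlap in either direction. The change in control hearts did not pass, with a log2 fold change of 0.56 (standard error 0.22, edgeR adjusted p = 0.0521). It passed without M34 (edgeR adjusted p = 0.0386) or M150 (0.032), naive Vegfc-deficient libraries outside this comparison. Without MI control M38, M006 or M40 it did not pass (edgeR adjusted p of 0.0709, 0.0935 and 0.103). The log2 fold change was 0.38 without naive control M45 and 0.76 without M44. In Vegfc-deficient hearts P4ha1 rose by 1.11 (standard error 0.19, edgeR adjusted p = 0.000826). Its paralogs differed from it in part. P4ha2 was at 39.0 to 49.7 CPM in naive, 39.9 to 42.8 CPM in MI control and 52.5 to 66.4 CPM in MI Vegfc-deficient libraries. As for P4ha1, its MI Vegfc-deficient libraries lay above its MI control libraries, but the latter overlapped the naive ones. P4ha3, named here after its values were seen, had 1 to 35 counts in each naive library (0.0906 to 2.85 CPM) and was at 32.7 to 125 CPM after MI.

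Serpinh1 (HSP47; ENSMUSG00000070436, chromosome 7, 99345376 to 99353239) was the most abundant of the 10 genes. It was at 377 and 280.2 CPM in naive control M44 and M45 and at 237, 369.7 and 279 CPM in naive Vegfc-deficient M149, M150 and M34. In infarcted hearts it was at 783, 899.5 and 1317 CPM in control M006, M38 and M40 and at 945, 1463 and 1366 CPM in Vegfc-deficient M35, M900 and M913. No naive library reached the lowest MI library. Serpinh1 rose by 1.60 in control hearts (standard error 0.32, edgeR adjusted p = 0.00268) and by 2.09 in Vegfc-deficient hearts (standard error 0.28, edgeR adjusted p = 0.00021).

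**Figure D2:**
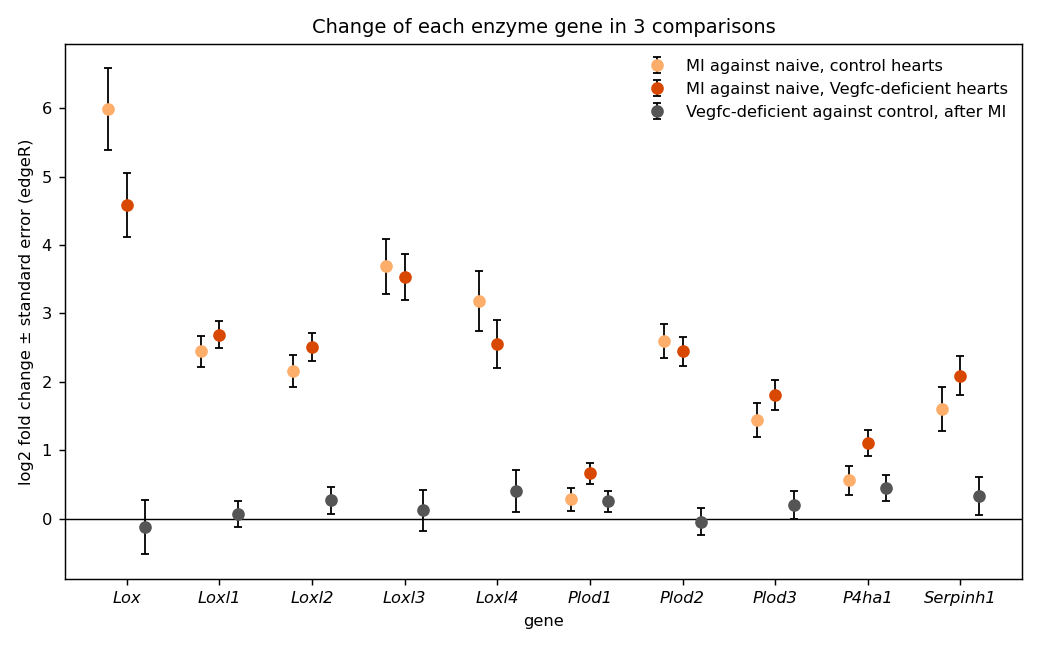
Log2 fold changes (vertical axis) of the 10 genes with standard errors from edgeR, for MI against naive in control hearts, the same in Vegfc-deficient hearts, and Vegfc-deficient against control hearts after MI. Both MI series run from under 1 for Plod1 to 5.98 and 4.58 for Lox, while the genotype points lie between -0.13 and 0.45.

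Scaled to length, as CPM per kilobase of exon (RPKM), the order of the genes was recast. Among naive libraries the mean levels were 126 RPKM for Serpinh1, 31.0 for Loxl1, 22.4 for P4ha1, 15.6 for Plod1, 8.98 for Loxl2, 8.89 for Plod3, 7.29 for Plod2, 4.08 for Lox, 2.91 for Loxl3 and 0.325 for Loxl4. Neighbours in this order overlapped in range except Serpinh1 with Loxl1, Plod1 with Loxl2, and Loxl3 with Loxl4. After MI the mean levels were 462 RPKM for Serpinh1, 186 for Loxl1, 134 for Lox, 45.7 for Loxl2, 41.5 for Plod2, 40.6 for P4ha1, 34.8 for Loxl3, 27.8 for Plod3, 21.9 for Plod1 and 2.15 for Loxl4. Here Lox overlapped Loxl1 above it but not Loxl2 below it, and the genes from Loxl2 down to Plod1 each overlapped the next.

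Within the oxidase family this amounted to a shift of makeup. Summed LOX family RPKM was 47.6 ± 2.88 (SD, n = 2) in naive control, 47.1 ± 6.82 (SD, n = 3) in naive Vegfc-deficient, 398 ± 84.5 (SD, n = 3) in MI control and 407 ± 83.0 (SD, n = 3) in MI Vegfc-deficient hearts. Lox made up 3.50% and 5.87% of it in naive control M44 and M45 and 6.58%, 9.90% and 16.2% in naive Vegfc-deficient M149, M150 and M34. After MI its share was 30.9%, 38.3% and 35.6% in control M006, M38 and M40 and 26.9%, 32.2% and 33.8% in Vegfc-deficient M35, M900 and M913. The share of Lox was thus higher in every MI library, by 24.6 percentage points on average. Loxl1 remained the largest part, but its share was lower after MI (43.3% to 51.2%) than in naive hearts (61.7% to 70.1%), as was that of Loxl2 (9.05% to 14.9% and 14.0% to 22.7%, overlapping). Lox and Loxl1 reached p = 0.00433 in an exact two-sided permutation test of the 6 MI against the 5 naive libraries, the smallest its 462 assignments allow (adjusted p = 0.00866 over the 8 shares tested), and Loxl2 had an adjusted p of 0.0139 in that exact test. Loxl3 gained 2.32 percentage points (adjusted p = 0.0289, exact permutation test), a call that was lost when any of 7 single libraries (M44, M45, M150, M38, M40, M900 or M913) was left out. Loxl4 stayed under 1.17% in each library, and its shares did not differ past the threshold (adjusted p = 0.346, exact permutation test).

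Within the lysyl hydroxylases, Plod2 took the place of Plod1 as the leading transcript. Summed PLOD family RPKM was 33.0 ± 3.81 (SD, n = 2), 31.0 ± 0.229 (SD, n = 3), 88.0 ± 16.5 (SD, n = 3) and 94.4 ± 14.3 (SD, n = 3) in the same order of groups. Plod1 made up 50.8% and 49.0% of it in naive control M44 and M45 and 47.5%, 50.2% and 48.0% in naive Vegfc-deficient M149, M150 and M34. Its share was 24.5%, 21.8% and 22.0% in MI control M006, M38 and M40 and 27.4%, 24.2% and 24.8% in MI Vegfc-deficient M35, M900 and M913. Plod2 went the other way, from 19.7% to 26.6% in naive libraries to 50.8%, 43.7% and 48.5% in MI control M006, M38 and M40 and 43.5%, 45.1% and 41.0% in MI Vegfc-deficient M35, M900 and M913. Neither share overlapped between states (adjusted p = 0.00866 for both, exact permutation test). Plod3 held 23.6% to 32.9% in naive and 24.7% to 34.5% in MI libraries (adjusted p = 0.302, exact permutation test). Without M149 the differences were -25.4 percentage points for Plod1, 21.6 for Plod2, 24.1 for Lox, -19.6 for Loxl1, -6.86 for Loxl2 and 2.43 for Loxl3, each called. The 6 called shares were also called with raw counts in place of RPKM and with the length of the longest transcript.

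**Figure D3:**
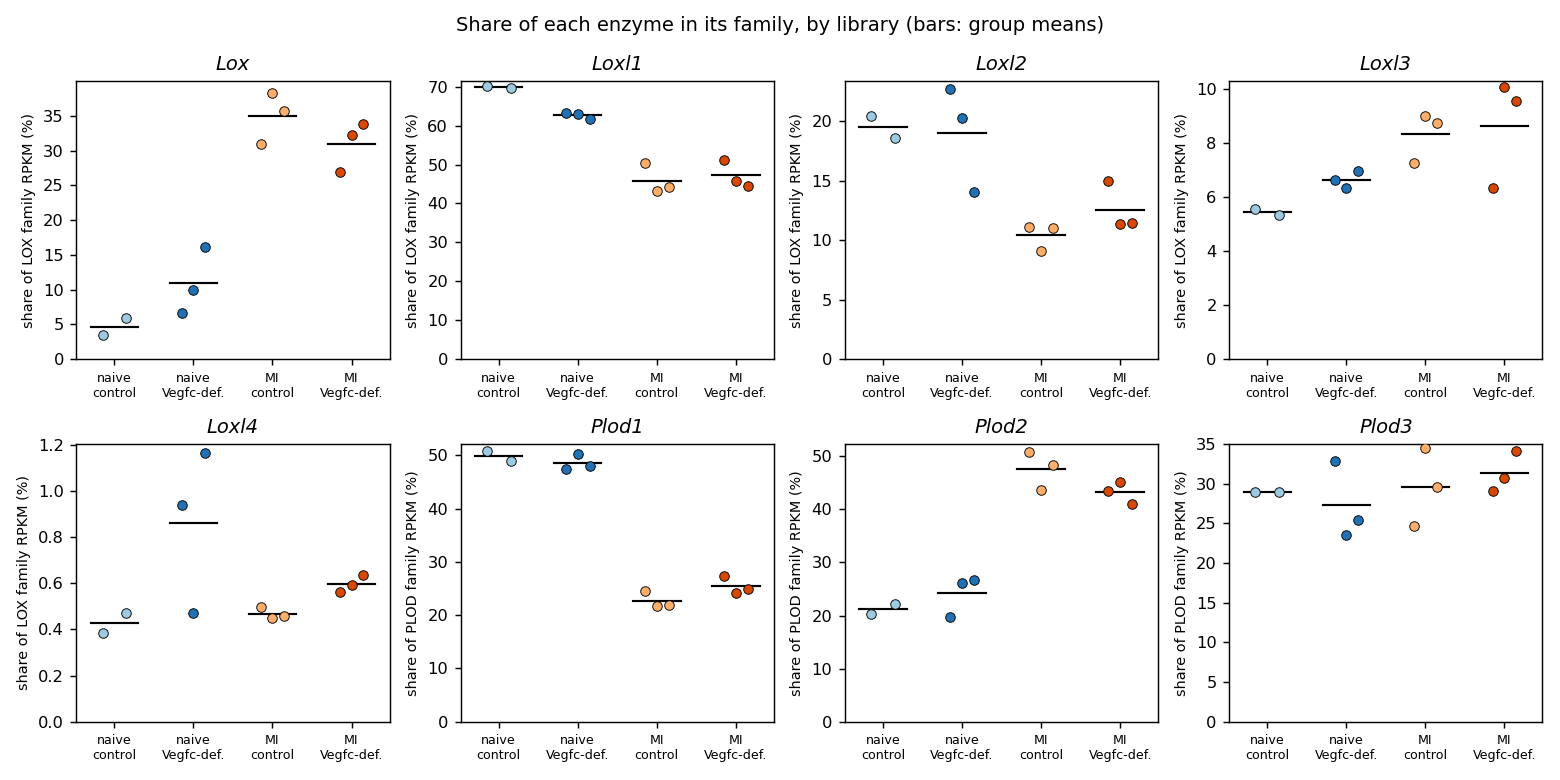
Share of each gene in the summed RPKM of its family (vertical axes, percent, from 0) in each library, with bars at the group means. Lox and Plod2 sit higher in all 6 MI libraries, Loxl1 and Plod1 lower, and Loxl4 and Plod3 overlap between states.

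The substrates of these enzymes rose further than most of the enzymes. Col1a1, Col1a2 and Col3a1, the chains of types I and III collagen, summed to 129 ± 3.50 RPKM (SD, n = 2) in naive control, 153 ± 37.4 (SD, n = 3) in naive Vegfc-deficient, 2118 ± 424 (SD, n = 3) in MI control and 2715 ± 448 (SD, n = 3) in MI Vegfc-deficient hearts. Lox RPKM per 1000 RPKM of these collagens was 13.2 and 21.1 in naive control M44 and M45 and 23.5, 26.6 and 50.8 in naive Vegfc-deficient M149, M150 and M34. It was 52.4, 78.1 and 67.8 in MI control M006, M38 and M40 and 33.8, 46.3 and 61.8 in MI Vegfc-deficient M35, M900 and M913. Lox alone gained on collagen, by 1.16 on the log2 scale over both genotypes (adjusted p = 0.013 over 10 ratios, exact two-sided permutation test). The states were apart in control hearts, whereas in Vegfc-deficient hearts naive M34 lay above MI M35 and M900. The other 9 genes lost ground to collagen. Per 1000 collagen RPKM, P4ha1 went from 100.5 to 201 in naive libraries to 13.8 to 18.4 in MI libraries, a log2 difference of -3.21, and Plod1 from 85.5 to 138 down to 7.93 to 10.3, a log2 difference of -3.59. Serpinh1 was at 678 to 1176 in naive and 156 to 230.1 in MI libraries (log2 difference -2.22), and Plod3 at 40.1 to 92.8 and 9.19 to 14.4 (-2.44). Differences of -1.57 for Plod2, -1.49 for Loxl1, -1.74 for Loxl2, -1.24 for Loxl4 and -0.55 for Loxl3 were smaller. Each of these 9 passed (adjusted p of 0.00541 for 8 and of 0.013 for Loxl3, exact permutation test). The ratio of P4ha1 does not cover its paralogs. P4ha3 was at 0.0289 to 0.908 RPKM in naive and 10.4 to 39.9 RPKM in MI libraries. P4ha1 was at 31.0 to 54.0 RPKM in MI libraries. Without M149 all 10 ratios still passed, with a difference of 1.142 for Lox and differences from -0.49 for Loxl3 to -3.52 for Plod1 (adjusted p of 0.0286 for Lox and Loxl3 and of 0.0119 for the others, exact permutation test). Another denominator turned this direction. Against the summed fibroblast markers instead of collagen, 9 of the 10 genes gained, from 0.54 for P4ha1 to 4.91 for Lox, and only Plod1 did not pass. In that sum a fall of the abundant marker Gsn stands beside rises of other markers.

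**Figure D4:**
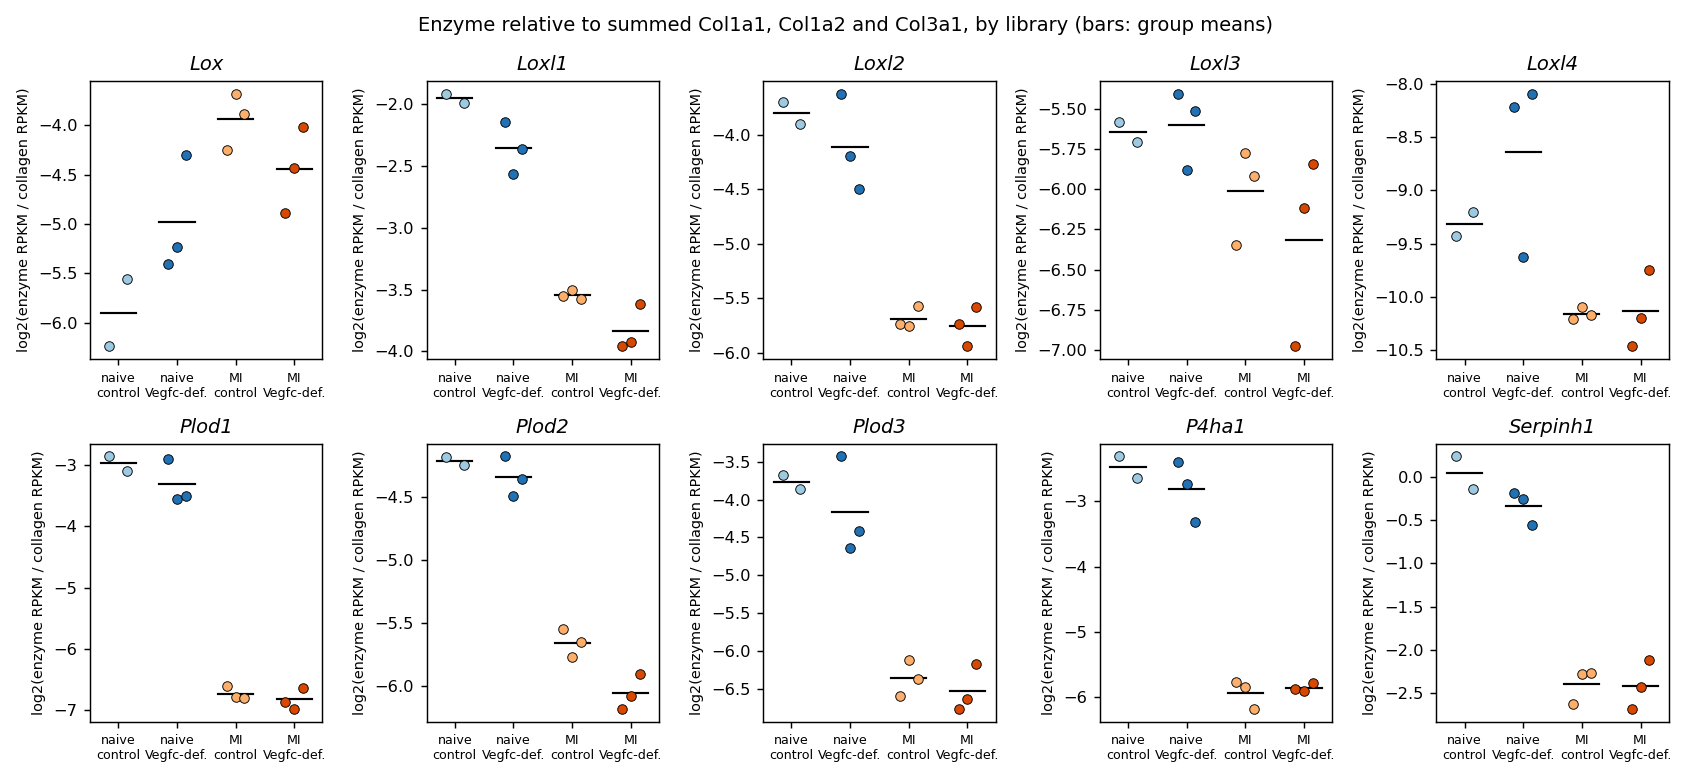
Log2 of each gene's RPKM over the summed RPKM of Col1a1, Col1a2 and Col3a1 (vertical axes, each with its own range) in each library, with bars at the group means. Points fall from naive to MI for 9 genes, with overlap between states for Loxl3, and rise for Lox, where naive M34 overlaps the MI libraries.

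The 6 MI libraries did not rank alike for every gene. M38 was the lowest of them for 6 genes, M35 for Lox and Loxl3, and M006 for Plod3 and Serpinh1, while M40 and M900 were each the highest for 4 genes and M913 for 2. The highest library exceeded the lowest by 1.39 times for Loxl1 up to 2.37 times for Loxl3. Summed cardiomyocyte markers among these libraries were 4015 CPM in M40, 7709 in M900, 12201 in M006, 13754 in M913, 17974 in M38 and 31752 in M35, and their part in these rankings was not tested.

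When Vegfc-deficient hearts were set against control hearts after MI, 0 of the 10 genes and 0% of the 14779 genes tested had an edgeR adjusted p under 0.05, while 1173 genes, P4ha1 among them, had an unadjusted p under 0.05 (edgeR). Log2 fold changes were 0.45 for P4ha1 (standard error 0.19, edgeR adjusted p = 0.619), 0.40 for Loxl4 (standard error 0.31), 0.33 for Serpinh1 (standard error 0.27), 0.27 for Loxl2 (standard error 0.19) and 0.26 for Plod1 (standard error 0.15). Those of Plod3, Loxl3, Loxl1, Plod2 and Lox were 0.20, 0.12, 0.068, -0.045 and -0.13. Single libraries moved 8 of these values by more than 1.5 times, all but those of P4ha1 and Loxl4. Serpinh1 was at 0.18 without M006 and at 0.58 without M40, Loxl2 at 0.15 without M38 and at 0.51 without M40, Plod1 at 0.155 without M38 and at 0.38 without M40, Plod3 at 0.054 without M006 and at 0.36 without M40, and Loxl1 at 0.0023 without M38 and at 0.22 without M40. Those of Lox, Loxl3 and Plod2 changed sign. P4ha1 was the single gene of the 10 whose groups did not overlap, with 174 to 222 CPM in Vegfc-deficient and 128 to 149.5 CPM in control hearts, beside 12.1% of all genes tested.

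In naive hearts 0 of the 10 genes and 0% of all genes differed between genotypes by the same edgeR test, and 499 genes had an unadjusted p under 0.05. For Lox the log2 fold change was 1.28 (standard error 0.48, unadjusted p = 0.0239, edgeR adjusted p = 1) and Loxl4 one of 1.03 (standard error 0.45, unadjusted p = 0.0438, edgeR adjusted p = 1). In Lox the groups overlapped, because the lowest Vegfc-deficient library, M149, lay below control M45. Without M149 the value for Lox was 1.61 (edgeR adjusted p = 0.332) and that for Loxl4 was 1.10, while without M34 they were 0.75 and 0.58. Loxl4 alone did not overlap, beside 22.4% of all genes. The other 8 genes lay between -0.18 for Loxl1 and 0.28 for Loxl3. The response to MI differed between genotypes for 0 of the 10 genes and 0% of all genes, with 1226 genes at an unadjusted p under 0.05 (edgeR interaction). The largest such difference was that of Lox, at -1.40 (standard error 0.62, edgeR adjusted p = 0.599), and it was -1.73 without M149 and -0.87 without M34. P4ha1 had a difference of 0.55 (standard error 0.28, edgeR adjusted p = 0.628), and of 0.35 without M44.

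The wider collagen machinery gave a mixed picture in control hearts. Of 18 other collagen-modifying enzymes and chaperones, 12 rose and 2 fell (median log2 fold change 0.92). The most abundant, Hspa5, a general chaperone of the endoplasmic reticulum, had a log2 fold change of -0.29 that did not pass (edgeR adjusted p = 0.327), and Pdia3, a disulfide isomerase, rose by 0.88 (edgeR adjusted p = 0.0139). The genes that fell were Colgalt2, a collagen galactosyltransferase, by 1.41, and Tmem38b, an ion channel of the endoplasmic reticulum, by 0.42. Of 14 tested genes of collagen export and propeptide processing, 8 rose and 1 fell (median 0.88). Adamts2, which removes the N-propeptide, rose by 3.04 (standard error 0.26), Pcolce, which speeds removal of the C-propeptide, rose by 0.81 (standard error 0.17), and Klhl12, an adaptor for large export vesicles, fell by 0.84.

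Most genes for substrates rose. Of 11 fibrillar collagen chains, 10 rose (median 4.10), with Col3a1 at 3.82 (standard error 0.41) and Col1a2 at 4.10 (standard error 0.39), and Col5a3 had a value of -0.14 that did not pass. Of 15 genes of elastic fibres, 13 rose (median 2.18). Elastin, Eln, rose by 5.86 (standard error 0.77) and Mfap4, a microfibril protein, by 4.64 (standard error 0.47), while Efemp1 fell by 1.93. Of 9 other crosslinkers and matrix stabilisers tested, 6 rose and 0 fell (median 1.50), with Postn, a matricellular protein that assists Lox activation, up by 5.68 (standard error 0.52) and Dcn, decorin, at 0.020 without passing.

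The genes that supply or regulate the enzymes did not move as 1 group. Of 11 tested genes on the list for copper handling, 4 rose and 2 fell (median 0.27). Sparc, a collagen-binding and copper-binding matrix protein, rose by 2.89 (standard error 0.36), as did the metalloreductases Steap1, Steap2 and Steap3, and Commd1, a copper export factor, and their relative Steap4 fell by 1.07 and 1.11. Atp7a, the pump that loads copper onto lysyl oxidases, had a value of 0.67 that did not pass (standard error 0.88, edgeR adjusted p = 0.547). Of 15 genes known to be induced by hypoxia, 10 fell and 2 rose (median -0.97), and in Vegfc-deficient hearts 10 fell and 3 rose. Lox, Loxl2, Plod2 and P4ha1 are themselves textbook targets of hypoxia-inducible factor. Ldha fell by 0.97 (standard error 0.22) and Egln1, an oxygen sensor, fell by 2.12 (standard error 0.30), and Pfkfb3 rose by 1.19 and Car9 by 2.25. Several of these genes are abundant in cardiomyocytes, whose markers fell in 9 of 10 cases (median -3.13), with Myl2 at -3.46 and Tnnt2 at -3.03 and Nppa, a stress-induced hormone gene, up by 2.21. The part of that in the hypoxia list was not tested.

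Other cell type lists were mixed in control hearts, and the called genes of short lists are named here after their values were seen. Of 11 fibroblast markers Cthrc1, Acta2, Mmp2, Meox1 and Tcf21 rose and Gsn fell by 1.67, and Dpt had a value of 0.44 that did not pass. Of 10 macrophage and monocyte markers 6 rose, C1qb by 1.70 and C1qa by 1.34. Of 9 endothelial markers Kdr and Emcn fell, and Pecam1 and Egfl7 had values of -0.59 and -0.75 that did not pass. Of 8 smooth muscle and pericyte markers Tagln (by 4.01), Cnn1, Myh11 and Pdgfrb rose, while Rgs5 (by 1.05), Kcnj8 and Abcc9 fell. Of 8 markers of a chondrocyte-like or bone-like program, the 5 tested, Comp, Acan, Sox9, Chad and Cilp2, all rose, Comp by 6.62 and Acan by 7.32. The sum of all 8 went from 6.88 to 19.0 CPM in naive to 252 to 597 CPM in MI libraries, with Ibsp at 0 in both MI groups. Of 8 lung epithelium markers 3 were tested, with Napsa and Ager up by 2.38 and 2.05 and Scgb1a1 lower, and Sftpa1 and Nkx2-1 had 0 counts in every group. Vegfc-deficient hearts gave like counts in the matrix lists, with 14, 10, 11, 13 and 6 genes higher among the other modifying enzymes, export and processing genes, fibrillar chains, elastic fibre genes and other crosslinkers. Of the endothelial markers 2 rose and 2 fell in Vegfc-deficient hearts. There Egfl7 fell by 1.51 (edgeR adjusted p = 0.00274) and Pecam1 was at 0.31 without passing. Between genotypes after MI no gene of any list passed the test, nor did any of the 14779 genes tested, so this is not particular to the lists.

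**Figure D5:**
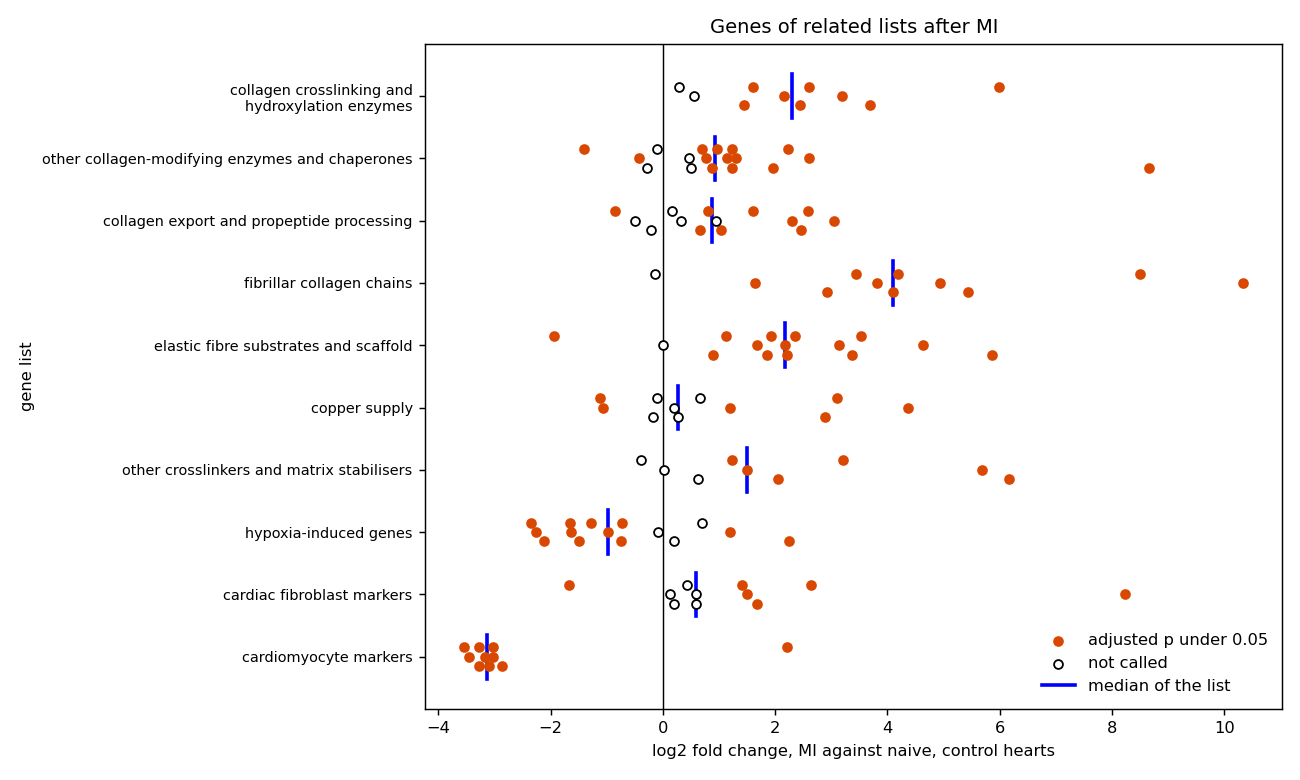
Log2 fold changes of MI against naive in control hearts (horizontal axis) for single genes of 10 lists, filled where the edgeR adjusted p is under 0.05, with a bar at each list's median. The 10 enzymes lie to the right of 0 with a median of 2.30, fibrillar chains lie further right at 4.10, and hypoxia-induced genes lie mostly to the left.

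Because several of these enzymes are classical hypoxia targets, the promoters were searched for the core of the hypoxia response element, ACGTG or GCGTG, on either strand in the 250 bases before the start. RefSeq windows (GRCm38.p6) were at hand for 5 of the 10 genes, Loxl4, Plod1, Plod3, P4ha1 and Serpinh1. All 5 held at least 1 match, beside 38.6% of 32851 windows and 41.5% of 27025 genes. Whether these 5 windows had been picked by the motif is not known, and such a pick would fix 5 of 5 in advance. The count therefore cannot be compared with the shares over all windows or genes. Plod3 held 4 matches, P4ha1 held 3 and the others 1 each. A match is a description of the letters, not a bound site. The windows of Loxl4, Serpinh1 and P4ha1, in order of their change after MI, are printed to let the matches be placed. That of Plod3 is left out of this order because it runs into the neighbouring gene Znhit1. Each is given as 240 bases read 5′ to 3′ on the strand of the gene, with the matches in capitals. It ends 11 bases before the start used for its RefSeq window. For Loxl4 that start is not the gene end given above (42612813), and distances are counted from the start used for the window. The Loxl4 window covers chr19:42612817-42613056 (minus strand), that of Serpinh1 chr7:99353250-99353489 (minus strand) and that of P4ha1 chr10:59323046-59323285 (plus strand).
Loxl4: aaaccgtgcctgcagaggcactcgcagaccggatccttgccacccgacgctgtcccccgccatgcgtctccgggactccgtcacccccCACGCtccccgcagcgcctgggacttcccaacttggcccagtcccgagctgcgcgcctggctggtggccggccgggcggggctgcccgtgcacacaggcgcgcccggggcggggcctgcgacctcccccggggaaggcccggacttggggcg
Serpinh1: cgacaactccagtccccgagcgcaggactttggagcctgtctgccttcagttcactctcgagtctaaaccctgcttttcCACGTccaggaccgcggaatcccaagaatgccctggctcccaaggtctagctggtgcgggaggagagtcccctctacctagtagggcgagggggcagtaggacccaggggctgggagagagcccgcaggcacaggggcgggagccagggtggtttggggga
P4ha1: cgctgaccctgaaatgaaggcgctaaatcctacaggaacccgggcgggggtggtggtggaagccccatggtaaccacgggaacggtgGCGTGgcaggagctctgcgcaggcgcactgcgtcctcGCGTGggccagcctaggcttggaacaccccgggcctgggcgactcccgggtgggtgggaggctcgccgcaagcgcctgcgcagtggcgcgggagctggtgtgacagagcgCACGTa
The match began 162 bases before the start in Loxl4 and 171 in Serpinh1, both on the opposite strand, and 163, 126 and 16 bases before it in P4ha1. Of these 3 genes, Loxl4 rose 9.08-fold and Serpinh1 3.04-fold in control hearts, and P4ha1, with the most matches, was at 1.47-fold without passing. Plod3, with 4 matches, rose 2.72-fold, and Plod1, with 1, was at 1.21-fold without passing. A relation between matches and change was not tested.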

How the data were processed

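Left ventricular mRNA of 11 mice was sequenced from stranded libraries. As the authors deposited them, the values were raw counts of reads per Ensembl gene for each library, and the submitters' processing notes name cutadapt (version 1.13), STAR, HTSeq (version 0.6.1p1), DESeq2 (version 1.14.1) and mm10, without the counting options. Counts were scaled by TMM and tested with edgeR's quasi-likelihood test (edgeR version 4.0.16, R version 4.3.3) in 1 fit of all 11 libraries after edgeR's filter on low counts, with Benjamini-Hochberg adjustment over 14779 genes and a threshold of 0.05. Each fold change is on the log2 scale and each standard error follows from its F statistic. RPKM used the union of exons in GENCODE M21 (GRCm38). Family shares and log2 ratios to collagen came from counts per exon length within a library and were compared between 5 naive and 6 MI libraries by an exact two-sided permutation test (scipy version 1.17.1). The edgeR code and the permutation test were tested on simulated data. The p-values measure the spread between mice. Replicate pairs differed beyond counting noise (mean chi-square per gene of 8.65 or more).

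The alternatives were DESeq2 (version 1.42.0), limma-voom (limma version 3.58.1), other size factors and filters, stricter thresholds, other lengths and denominators, and leaving out each library. The members and gene lists were chosen with earlier results of these data known. All members are described. Of the other lists, the text names the 2 tested genes with the highest mean CPM and any called against the direction of their list where 3 or fewer were, and Pxdnl matched no gene. Atp7a, Col5a3, Steap1, Steap2, Steap3, P4ha2, P4ha3 and the further cell type markers were named outside this rule. Protein sequences were not used here.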

Additional observations from a re-analysis of the deposited data

Results flagged for a closer look

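Of 36 sets of shares or ratios examined within naive or within MI libraries, 1 held a library far from the rest, where chance gives about 1 in 20. The log2 ratio of P4ha1 to collagen was -6.18 in MI control M40 and -5.90 to -5.77 in the other 5 MI libraries. The gap was 0.672 of the whole range.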

How the results depend on the processing

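The counts of called members, shares and ratios stayed within 1.5 times their main value under all 131 alternative settings run for them. Of the 10 genes, 8 to 10 were called in control hearts after MI, with P4ha1 added by upper-quartile factors and by a fit of the compared groups alone, and P4ha1 and Plod1 by total counts without TMM. Without TMM the median log2 fold change of all genes was 0.574 in control hearts instead of 0.128 and 0.593 in Vegfc-deficient hearts instead of 0.0968, and 76.2% of calls were higher in control hearts instead of 52.1%, and 75.5% instead of 52.0% in Vegfc-deficient hearts. Calls over all genes in control hearts fell from 7450 to 4574 without naive control M45 and to 4880 without M44. The DESeq2 Wald test called 62 genes between genotypes after MI, 14 in naive hearts and 58 for the difference of responses, against 0 each by edgeR, limma-voom called 6 in naive hearts and leaving out M149 called 17, and none of these was a member. Other settings called 1 or 2 genes in these comparisons. With fibroblast markers in place of collagen, ratios reversed to 2.26 for Loxl1, 2.01 for Loxl2, 3.20 for Loxl3, 2.52 for Loxl4, 0.16 for Plod1, 2.18 for Plod2, 1.31 for Plod3, 0.54 for P4ha1 and 1.53 for Serpinh1, because the marker sum changed little where collagen rose. Uncalled genotype differences changed sign. After MI, Lox was at 0.067 by limma-voom and ran from -0.30 to 0.10 as single libraries were left out, Loxl3 from -0.084 to 0.42 and Plod2 from -0.17 to 0.13. In naive hearts Loxl2 ran from -0.21 to 0.042, Plod1 from -0.27 to 0.019, P4ha1 from -0.30 to 0.096 and Serpinh1 from -0.36 to 0.072. The difference of responses ran from -0.35 to 0.14 for Loxl3 and from -0.27 to 0.022 for Plod2. The cause was not tested. No paired analysis was possible because the mouse numbers differ between groups. Depth limits Loxl4, with 8 to 32 counts in naive libraries.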
